A study of Mus musculus with 6 samples.

Results

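Cytosolic ribosomal protein genes were compared between mouse fibroblasts with 1 and with 0 working copies of GCN5, all of them lacking the related enzyme PCAF. The members were the probe sets (groups of short probes for 1 transcript on an Affymetrix array) annotated with a single symbol of the form Rpl or Rps plus a number, or Rpsa, Rplp0, Rplp1 or Rplp2. This gave 100 of 45101 probe sets, for 46 genes. The large subunit had 44 probe sets of 24 genes and the small subunit 56 probe sets of 22 genes. A level filter, a mean log2 signal of at least 6.80, left 90 members of 43 genes for testing. The other 10 lay below it, and with them every probe set of Rpl39l (mean log2 signal 4.58), Rpl3l (4.85) and Rps16 (4.58). Rpl3l is a muscle-restricted relative of Rpl3 and Rpl39l a testis-restricted relative of Rpl39. The low reading of the Rps16 probe set does not show that the Rps16 message was absent.

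Total RNA came from immortalized mouse embryonic fibroblasts, connective tissue cells from embryos kept in culture. Every culture was PCAF-/- (gene Kat2b) and carried a conditional GCN5 allele (gene Kat2a), was infected with a retrovirus carrying either Cre recombinase or no insert, and was selected with puromycin at 2.5 ug/ml in DMEM with 10% fetal bovine serum. The 2 groups were PCAF-/-;GCN5+/- (n = 3 arrays) and PCAF-/-;GCN5-/- (n = 3 arrays). In each group line A gave a pair of RNAs, named A1 and A2, and a line immortalized separately, B, gave 1. Only 2 independent lines therefore stand behind the comparison, and part of the spread behind its p-values lies between RNAs of 1 line and may be technical. No label of an array says which virus it had, and in the design text both infections carry the genotype GCN5+/-, so groups follow the genotype in the sample labels, and virus and genotype changed together.

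The ribosome is built of ribosomal RNA and ribosomal proteins. The large subunit joins amino acids and lets the growing chain out through a tunnel, and the small subunit reads the messenger RNA. Most ribosomal protein messages are abundant in growing cells and begin with a terminal oligopyrimidine (TOP) stretch, a C followed by further C and T, through which mTORC1 signalling sets their translation. GCN5 and PCAF are histone acetyltransferases that can partly stand in for each other, and GCN5 is a subunit of the SAGA and ATAC complexes.

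RefSeq promoters (GRCm38.p6) were at hand for 40 of the 46 genes. The bases just before the start are shown for members that were lower in GCN5-/- cells (Rpl37a, Rpl38, Rpl41, Rps10, Rps15) and for Rplp0 and Rps28, which were not called, so that the upstream letters can be set beside the signals described further on. Each line gives 100 bases read 5′ to 3′ on the gene's strand, up to the base before the start. Capitals mark CCGGAAG, the core bound by ETS factors, or GGGCGG, the GC box bound by Sp1, on either strand.
Rpl37a, chr1:72711160-72711259, plus strand: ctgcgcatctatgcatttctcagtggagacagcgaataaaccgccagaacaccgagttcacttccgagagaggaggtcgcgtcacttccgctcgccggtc
Rpl38, chr11:114668480-114668579, plus strand: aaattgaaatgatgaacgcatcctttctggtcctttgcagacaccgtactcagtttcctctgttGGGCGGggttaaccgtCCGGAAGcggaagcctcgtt
Rpl41, chr10:128549169-128549268, minus strand: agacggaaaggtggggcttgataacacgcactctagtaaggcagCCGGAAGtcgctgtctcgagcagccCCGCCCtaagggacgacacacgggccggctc
Rps10, chr17:27635245-27635344, minus strand: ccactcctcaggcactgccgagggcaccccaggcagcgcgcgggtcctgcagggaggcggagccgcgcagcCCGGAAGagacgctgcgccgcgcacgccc
Rps15, chr10:80292331-80292430, plus strand: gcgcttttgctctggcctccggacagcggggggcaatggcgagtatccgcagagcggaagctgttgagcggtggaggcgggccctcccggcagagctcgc
Rplp0, chr5:115559367-115559466, plus strand: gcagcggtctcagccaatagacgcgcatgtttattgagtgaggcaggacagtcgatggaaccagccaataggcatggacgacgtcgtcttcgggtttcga
Rps28, chr17:33824563-33824662, minus strand: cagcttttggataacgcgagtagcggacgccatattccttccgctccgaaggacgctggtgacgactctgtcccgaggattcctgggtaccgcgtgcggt

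Among these 7 windows the ETS core is present for Rpl38, Rpl41 and Rps10, and neither motif for Rpl37a, Rps15, Rplp0 and Rps28. Over 300 bases, 250 before and 50 after the start, the ETS core was found on either strand in 20 of the 40 members' promoters (50%) and in 9.12% of all 27025 promoters in the table. Among the members it was in 6 of 11 genes with a probe set called lower and in 13 of 26 tested genes with none. The GC box was in 21 of 40 (52.5%) against 35.9% of all, the E-box CACGTG in 3 (7.50%) against 7.24%, the YY1 motif AAGATGGC in 2 (5.00%) against 2.88% and the TATA box TATAAA in 4 (10.0%) against 14.2%. None of these motifs contains another.

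The start itself is shown for 5 genes as 10 bases before it and 15 after, with the longest unbroken run of C and T in capitals, because the TOP stretch lies there.
Rpl38, chr11:114668570-114668594, plus strand: aagcctcgTTCTTTCCCCgttctct
Rps10, chr17:27635230-27635254, minus strand: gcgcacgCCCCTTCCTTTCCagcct
Rpl35, chr2:39005117-39005141, minus strand: ccgCCCTTTCCTCTTTCTCTCgaac
Rpl37a, chr1:72711250-72711274, plus strand: CTCgccggtctaaaaccgcgcatgc
Rpl41, chr10:128549154-128549178, minus strand: gggccggCTCggaagtgacgacacc

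Rpl35, Rps10 and Rpl38 have runs of 18, 13 and 10 bases, whereas the annotated starts of Rpl37a and Rpl41 have runs of 3. A TOP-like start, a C within 15 bases of the annotated start followed by at least 4 pyrimidines, was found for 28 of 40 members (70%) and for 40.2% of all promoters. It was in 5 of 11 genes with a probe set called lower and in 20 of 26 tested genes with none. These are descriptions of annotated starts, and 7 of the 40 genes have further starts in the table, of which the first listed was used.

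The question of the genotype comparison was which genes depend on GCN5 in cells without PCAF. Ribosomal protein signals were slightly lower in GCN5-/- cells. Of the 90 tested probe sets, 30 (33.3%) fell at a limma adjusted p under 0.05, in 13 of 43 genes, where 4.31% of all 27022 tested probe sets fell. None rose, at the adjusted threshold or at an unadjusted p under 0.05, where 4.20% and 11.7% of all tested probe sets rose; 52 members were lower at an unadjusted p under 0.05, against 12.7% of all. The median difference was -0.13 log2 units (quartiles -0.22 and -0.03), a 1.10-fold fall, against -0.01 over all tested probe sets. With 1 probe set per gene, the brightest, the median was -0.10 and 12 of 43 fell. The count depends on how the spread was estimated: it was 5 with the line A duplicates averaged, 4 without a trend of variance on signal and 2 without a line term. The 30 differences were below 0 in each of these fits, but this could hardly turn out otherwise. They were chosen as lower on the same arrays, and dropping the trend or the line term leaves the fitted differences unchanged. The count was 9 without GCN5+/- A1, 12 without GCN5+/- A2, 13 without GCN5-/- A1 and 12 without GCN5-/- A2. Leaving out the _s_at and _x_at probe sets, whose probes can match other genes, 12 of 49 were called; leaving out also the _a_at probe sets, whose probes match several transcripts of 1 gene, 3 of 23 were.

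The arrays themselves show the size of the shift. The median log2 signal of the tested members was 14.08, 14.09 and 14.05 in GCN5+/- cells (arrays A1, A2 and B in that order, here and below) and 13.89, 13.91 and 13.90 in GCN5-/- cells. The groups do not overlap in these medians. The 3 GCN5-/- values were all below the 3 GCN5+/- values for 45 of 90 members, where 8.79% of all tested probe sets behaved so, and all above for 3 (Rps27l and 2 probe sets of Rps28), where the background was 8.20%. The difference was below 0 in all 3 matched pairs for 64 of 90 members, against 25.3% of all tested probe sets. Taken by pair, the median difference was -0.13 for A1, -0.12 for A2 and -0.11 for B, whereas duplicate RNAs had median differences of 0.01 (GCN5+/-) and 0.00 (GCN5-/-). In these bulk RNAs, a change in the mix of cells and less of these messages per cell cannot be told apart. The log2 of the summed signals of 8 fibroblast markers was also lower, at 16.97 to 17.14 in GCN5+/- against 16.87 to 16.95 in GCN5-/- cells. Among the brightest of these markers, Col1a1 and Col1a2 differed by -0.35 and -0.20, and Vim and Fn1 by 0.07 and 0.03. The part of this sum in the result was not tested. All 100 members, tested or not, had a median difference of -0.13, and 77 were below 0.

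**Figure D1:**
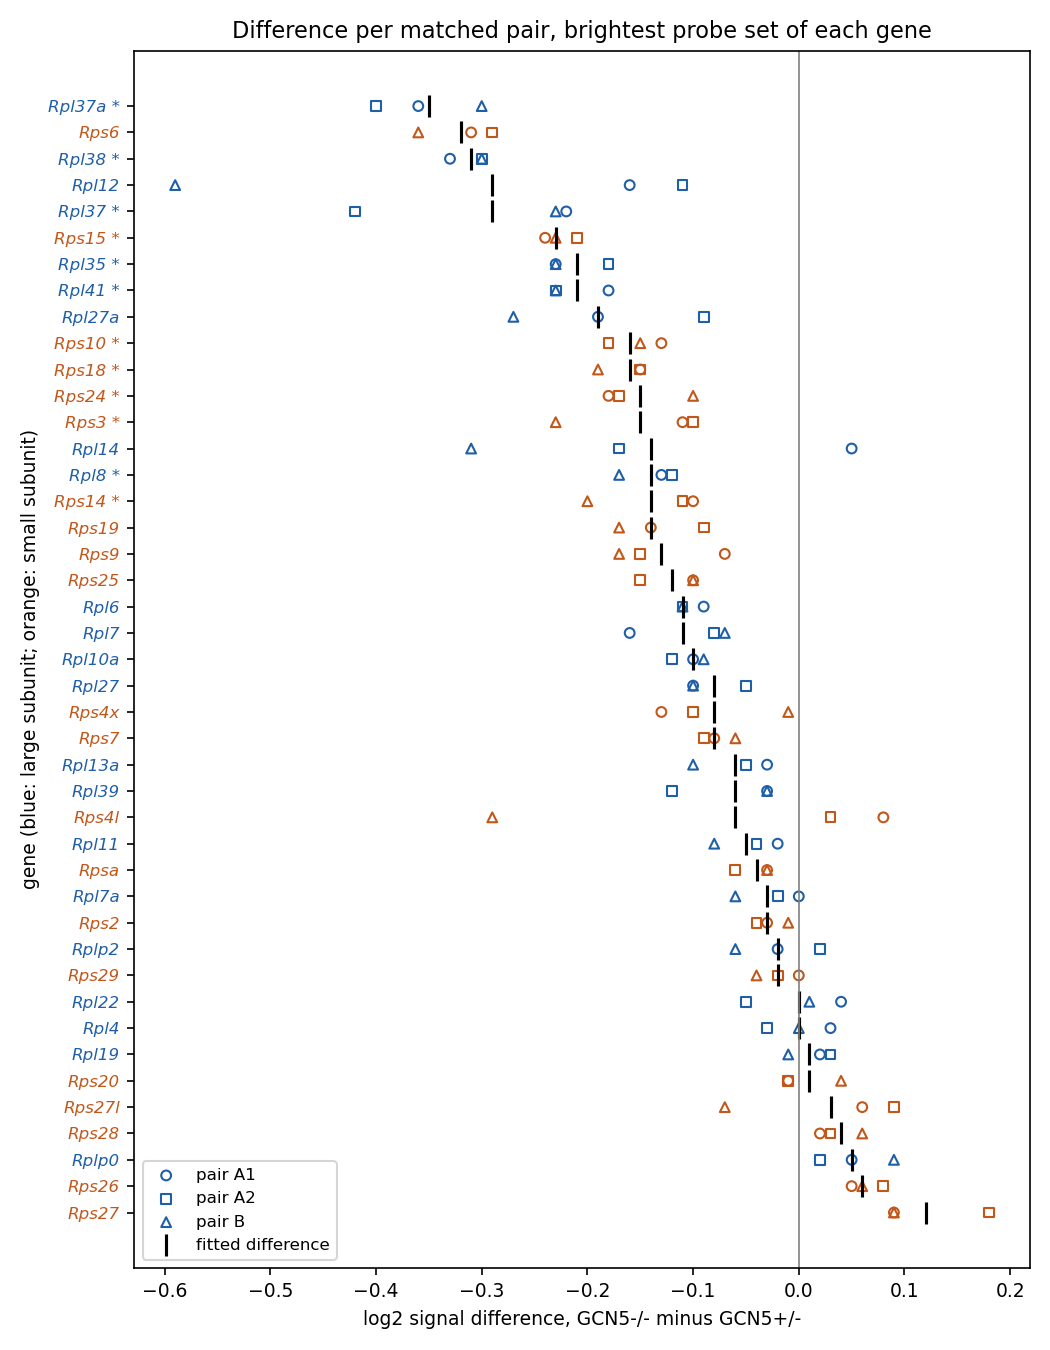
Log2 signal difference, GCN5-/- minus GCN5+/-, in each matched pair (open symbols) and as fitted (vertical tick) for the brightest tested probe set of each of 43 genes, with large subunit genes in blue, small subunit genes in orange and genes whose plotted probe set was called lower marked by an asterisk. The plotted fitted differences run from -0.35 to 0.12 and 34 of 43 lie below 0.

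Rpl37a, a zinc-binding protein of the large subunit, had the smallest p. Its probe set 1460543_x_at read 14.36, 14.32 and 14.14 in GCN5+/- and 13.91, 13.87 and 13.70 in GCN5-/- cells. All 3 GCN5-/- arrays were below all 3 GCN5+/- arrays, and line B was lower than line A in both genotypes. The fitted difference was -0.45 ± 0.03 (SE, limma adjusted p = 0.000444). The other probe sets of the gene fell by 0.35 ± 0.03 (adjusted p = 0.000859) and 0.50 ± 0.09 (adjusted p = 0.0174).

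Rpl41 encodes a very short, highly basic peptide at the interface of the subunits, and is the member nearest the top of the scale. Probe set 1422623_x_at read 15.01, 15.03 and 15.06 in GCN5+/- and 14.75, 14.72 and 14.76 in GCN5-/- cells (-0.29 ± 0.03, limma adjusted p = 0.000842). Its dimmest probe set, 1433530_at, read 7.50, 7.49 and 7.32 against 6.74, 6.95 and 6.53 (-0.69 ± 0.10, adjusted p = 0.00619). All 4 probe sets of the gene fell, and the groups did not overlap in the bright or the dim one.

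Rpl38, a large subunit protein studied for its part in the translation of Hox messages in mouse embryos, read 14.60, 14.61 and 14.57 in GCN5+/- and 14.28, 14.32 and 14.27 in GCN5-/- cells. These groups were separate, and the arrays of the 2 lines lay together within each genotype. The difference was -0.31 ± 0.03 (limma adjusted p = 0.00121).

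Among proteins lining the peptide exit tunnel and its rim, Rpl35 fell and the others were not called. Rpl35 probe set 1416243_a_at read 14.17, 14.18 and 14.09 in GCN5+/- and 13.84, 13.91 and 13.89 in GCN5-/- cells (-0.26 ± 0.04, limma adjusted p = 0.00864). All 5 tested Rpl35 probe sets were called, with differences from -0.26 to -0.21. This call was lost without GCN5+/- A1 (adjusted p = 0.0551). Rpl19 (0.01), Rpl4 (0.00), Rpl39 (-0.06) and Rpl22 (-0.08 to 0.00) were not called, and the 11 tested probe sets of the group had a median of -0.08.

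Rpl8, Rpl27, Rpl10a and Rpl27a, also of the large subunit, were read together. Of these, Rpl8 and 1 of 3 Rpl27 probe sets fell. Rpl8 read 14.43, 14.43 and 14.55 in GCN5+/- and 14.30, 14.31 and 14.38 in GCN5-/- cells (-0.14 ± 0.03, limma adjusted p = 0.0278). Rpl27 probe set 1448217_a_at read 12.30, 12.27 and 12.30 against 12.02, 12.07 and 12.04 (-0.24 ± 0.06, adjusted p = 0.0392). Neither gene's groups overlapped in these probe sets, but the Rpl8 call was lost without any 1 of the line A arrays and the Rpl27 call without any 1 of the 6 arrays; with the replicate number as a block Rpl27 had an adjusted p of 0.0535. The other Rpl27 probe sets, the brightest among them, differed by -0.08 (adjusted p = 0.245) and -0.14 (adjusted p = 0.197). Rpl10a (-0.10, adjusted p = 0.0901) and Rpl27a (-0.19, adjusted p = 0.291) were not called either. The 6 tested probe sets of these genes had a median of -0.14.

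The landmarks of the rest of the large subunit were not called. Rplp0, the base of the P-stalk that recruits elongation factors, read 14.81, 14.81 and 14.69 in GCN5+/- and 14.85, 14.83 and 14.78 in GCN5-/- cells (0.05 ± 0.03, limma adjusted p = 0.283). Its groups overlapped. Rplp2, its partner in the stalk, differed by -0.02 ± 0.03 (adjusted p = 0.736). Rpl11, which binds the ribosomal RNA with Rpl5 and can bind Mdm2 when assembly fails, differed by -0.05 ± 0.03 (adjusted p = 0.432). Rpl5 and Rplp1 had no probe set of their own.

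In the small subunit, called members included Rps10, Rps15, Rps18 and Rps3, which lie in the head around the decoding side. Rps10 probe set 1434854_a_at read 14.07, 14.07 and 14.02 in GCN5+/- and 13.74, 13.81 and 13.79 in GCN5-/- cells (-0.27 ± 0.04, limma adjusted p = 0.00615). Rps15 probe set 1416088_a_at read 14.12, 14.14 and 14.25 against 13.87, 13.93 and 14.02 (-0.23 ± 0.03, adjusted p = 0.00856). In both the 3 GCN5-/- arrays lay below the 3 GCN5+/- arrays, and Rps15 was highest in line B within each genotype. Of 6 tested Rps10 probe sets, 4 were called, and of 2 Rps15 probe sets, 2.

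Rps18 fell by 0.16 ± 0.03 in probe set 1435712_a_at (limma adjusted p = 0.0141), with 14.71, 14.72 and 14.75 in GCN5+/- and 14.56, 14.57 and 14.56 in GCN5-/- cells. Rps3, a protein of the messenger RNA entry channel that also acts in DNA repair, gave 3 values. Probe set 1455600_at read 10.95, 11.17 and 10.54 against 10.54, 10.66 and 10.23 and fell by 0.41 ± 0.09 (adjusted p = 0.0379), yet its groups overlap, line B being low in both. Probe set 1435151_a_at fell by 0.15 ± 0.04 (adjusted p = 0.0431), and 1447563_at was not called (-0.14 ± 0.09, adjusted p = 0.414). Without any 1 line A array the Rps18 call was lost, and the Rps3 call of 1455600_at was lost in 5 of the 6 fits that leave out an array. The call of the brighter Rps3 probe set, 1435151_a_at, was lost in each of these 6 fits. With the replicate block its adjusted p was 0.0655.

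In the body of the small subunit, Rps24, which is mutated in some Diamond-Blackfan anaemia, fell in 3 of 6 probe sets. Probe set 1453362_x_at read 13.35, 13.32 and 13.40 in GCN5+/- and 13.09, 13.12 and 13.20 in GCN5-/- cells (-0.22 ± 0.04, limma adjusted p = 0.0211). The 6 fitted differences ran from -0.35 to 0.13, so they did not all point one way. The 0.13 was that of the dimmest probe set, 1436500_at, whose mean signal of 6.91 lay near the filter. The call of 1453362_x_at was lost whichever line A array was left out. Rps6, the main phosphorylated target of S6 kinase, read 10.42, 10.60 and 10.81 against 10.11, 10.31 and 10.45 (-0.32 ± 0.10, adjusted p = 0.0814) and was not called. Each Rps6 pair was lower in GCN5-/- cells, but the groups overlapped. The 11 probe sets of the body had a median of -0.18.

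On the platform, where the messenger RNA leaves, Rps14 was the called gene. Its probe set 1436586_x_at read 14.50, 14.51 and 14.60 in GCN5+/- and 14.41, 14.39 and 14.40 in GCN5-/- cells (-0.14 ± 0.03, limma adjusted p = 0.0430). This call was lost in each of the 6 fits that leave out an array and with the replicate block (adjusted p = 0.0655). Rpsa, also known as the laminin receptor, differed by -0.04 ± 0.03 (adjusted p = 0.479). The 6 tested probe sets of Rps14, Rpsa, Rps26, Rps27 and Rps2 had a median of -0.03.

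Some small subunit genes gave values near or above 0. The 3 probe sets of Rps28 read between 14.41 and 14.71 in GCN5+/- and between 14.46 and 14.74 in GCN5-/- cells, with differences of 0.04 to 0.06, none called. The 4 probe sets of Rps20 differed by 0.01, 0.02, 0.18 and 0.31, the last 2 from signals near the filter, and none was called. Rps27l, a p53-inducible relative of Rps27, differed by 0.03 to 0.06 in 3 probe sets, none called. Rps4x, the X-linked copy of the gene, differed by -0.08 ± 0.03 (limma adjusted p = 0.206).

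Values close to the threshold show how little separated the 2 sides. Rps24 1456628_x_at and Rps10 1439374_x_at were called at a limma adjusted p of 0.0498 (0.0632 and 0.0680 with the replicate block), as was Rpl37 (-0.29 ± 0.07, adjusted p = 0.0473; 0.0579 with the replicate block), and Rps18 1455572_x_at and Rps24 1428530_x_at were not at 0.0501. The calls of Rpl37 and Rps10 1439374_x_at were lost in each of the 6 fits that leave out an array. That of Rps24 1456628_x_at was lost whichever line A array was left out. Rps19, the gene most often mutated in Diamond-Blackfan anaemia, differed by -0.14 ± 0.04 (adjusted p = 0.0526). The 12 genes with the smallest p were each followed in the probe set with that p. Of these, Rpl37a, Rpl41, Rpl38, Rps10 and Rps15 stayed called whichever array was left out. Rps10 and Rps15 did so narrowly, with adjusted p up to 0.0446 and 0.0496 in these limma fits. Another Rpl41 probe set, 1454639_x_at, was lost in each of them.

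**Figure D2:**
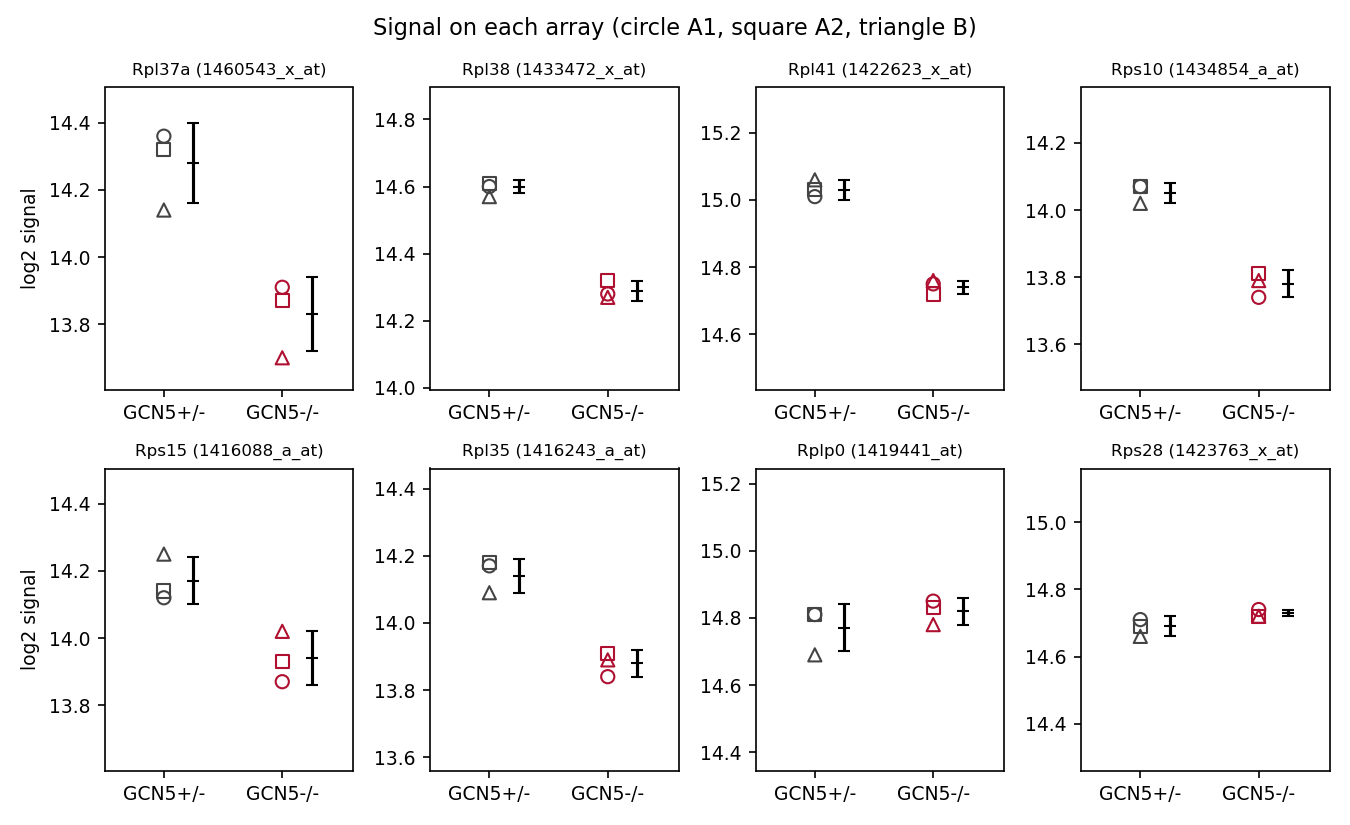
Log2 signal on each array (circle A1, square A2, triangle B; black bar, mean ± SD, n = 3) for Rpl37a, Rpl38, Rpl41, Rps10, Rps15 and Rpl35, which were called lower, and for Rplp0 and Rps28, which were not. Each panel spans 0.9 log2 units; in the first 6 genes every GCN5-/- array lies below every GCN5+/- array, as for Rpl38 (at most 14.32 against at least 14.57).

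The large and small subunits were set side by side. Of 40 large subunit probe sets, 16 (40%) fell, in 7 of 22 genes, and of 50 small subunit probe sets, 14 (28%) fell, in 6 of 21 genes. Median differences were -0.15 and -0.12. The 3 matched pairs gave -0.15, -0.16 and -0.18 for the large and -0.11, -0.10 and -0.10 for the small subunit. With 1 probe set per gene the medians were -0.10 and -0.08. The order turned without the _s_at and _x_at probe sets (large -0.10, small -0.12) and with plain _at probe sets alone (large -0.08, small -0.13). The difference between the subunits was not tested, and Rpl35, Rpl37a and Rpl41 alone gave 12 of the large subunit's 16 calls.

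Ribosomal protein probe sets lie close to the top of the scale. The highest signal of the series was 15.18, and the array maxima were 15.13 to 15.18 on the 6 arrays. Of the 100 members, 36 (27 genes, 16 large and 20 small subunit probe sets) had a mean within 1 log2 unit of it, against 173 of all 45037 probe sets (0.384%). Rpl41 (14.95 and 14.89) and Rplp0 (14.80) were among the nearest. At a mean of 14 or more, 17 of 45 members fell (37.8%; median -0.10), whereas of 153 probe sets of other genes 20 fell (13.1%) and 19 rose (12.4%; median 0.03).

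Dimmer members had medians further from 0 in most classes. Members at 13 to 14 had a median of -0.15 (5 of 17 called), at 12 to 13 -0.20 (3 of 6), at 10 to 12 -0.29 (2 of 9) and at 8 to 10 -0.23 (2 of 8). Of the 5 members under 8, 1 fell, and their median was 0.13. Precision changed with signal too: the median SE of members was 0.0322 at 14 and over and 0.0982 under 8. Where a gene had several tested probe sets, the dimmest had the larger absolute difference in 14 of 19 genes (73.7%), with medians of 0.13 for the brightest and 0.14 for the dimmest. Among 63 other genes with a probe set at 14 or over, this was so in 48 (76.2%; 0.07 and 0.11). The part of saturation in these differences was not tested.

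**Figure D3:**
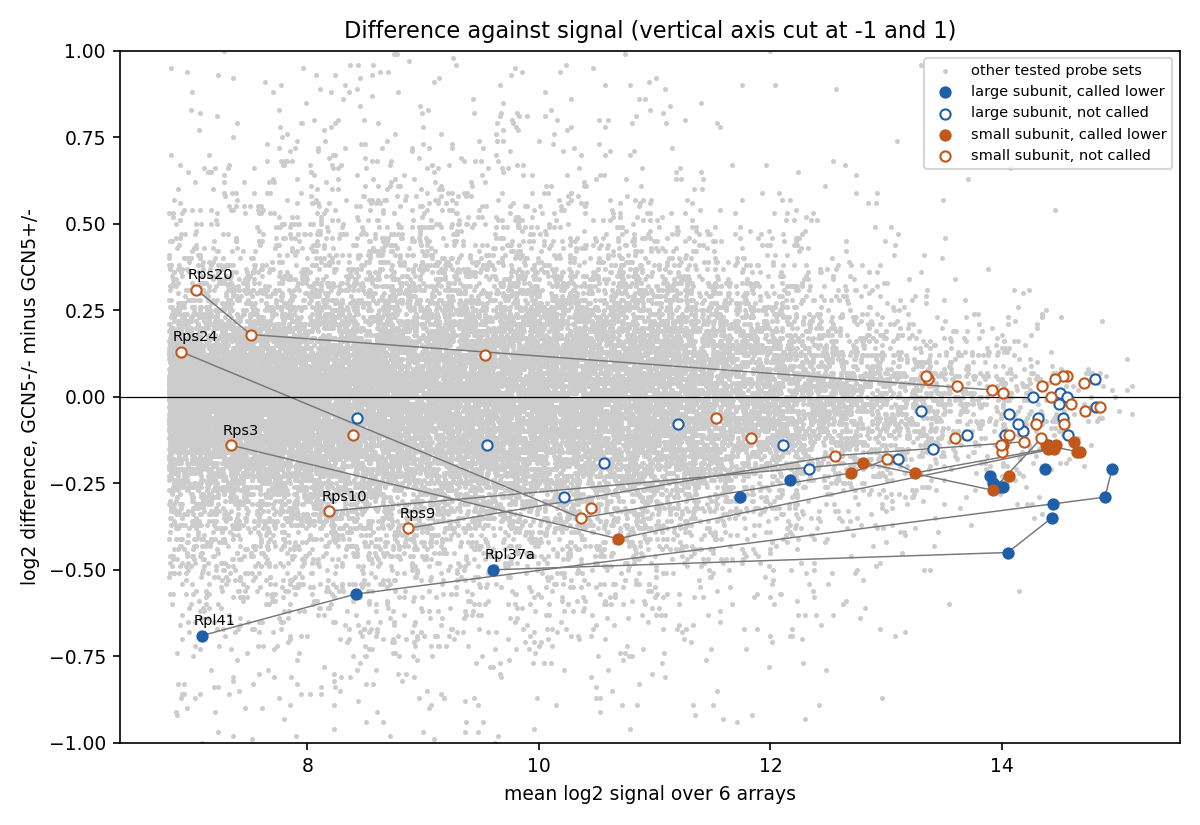
Log2 difference, GCN5-/- minus GCN5+/-, against mean log2 signal over 6 arrays for the 90 tested ribosomal protein probe sets (coloured by subunit, filled where called lower) and the other tested probe sets (grey), with the vertical axis cut at -1 and 1. The ribosomal protein points crowd at 14 and over, where 45 of the 90 lie, and no filled point is above 0.

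Probe sets of 1 gene did not always move together. All tested probe sets fell in 4 of the 19 genes with several (Rpl41, Rpl37a, Rpl35 and Rps15), some in 6 and none in 9, and all were below 0 in 13. The widest spreads were in Rps24 (0.49), Rpl41 (0.48) and Rps20 (0.30). Another 110 probe sets carry a ribosomal protein symbol together with further symbols, mostly pseudogenes. Of the 104 tested, 21 (20.2%) fell and 0 rose at the adjusted threshold (1 at an unadjusted p under 0.05), with a median of -0.07. Since ribosomal protein genes have many near-identical copies, single-symbol probe sets may also bind more than 1 transcript.

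The 2 lines were compared in the same fit. Line B was lower than line A for 8 of 90 members, where 11.5% of all tested probe sets were lower, and higher for 4, where 11.6% were. Of the 104 tested probe sets that carry further symbols, 10 (9.62%) were lower and 19 (18.3%) higher in line B. Of the members, 8.89% were lower, near the background, and 4.44% were higher. Rps4l, an Rps4-related gene, stood far from the rest: its signals were 12.09, 12.20 and 10.37 in GCN5+/- and 12.17, 12.23 and 10.08 in GCN5-/- cells. Both line B arrays lay below the 4 line A arrays, with a mean of 10.23 ± 0.21 (SD, n = 2) against 12.17 ± 0.06 (SD, n = 4). The fitted difference was -1.95 ± 0.10 (SE, limma adjusted p = 8e-06), a 3.85-fold lower signal in line B. Its genotype difference was -0.06 ± 0.09 (adjusted p = 0.748).

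The other called line differences ran from -0.44 to 0.14. Rps19 read 14.15, 14.13 and 13.89 in GCN5+/- and 14.01, 14.03 and 13.72 in GCN5-/- cells, so that line B was below line A throughout (-0.28 ± 0.04, limma adjusted p = 0.00152). Rpl37a (-0.20 ± 0.04, adjusted p = 0.00703), Rps3 (-0.44 ± 0.10, adjusted p = 0.0152) and Rpl13a (-0.13 ± 0.04, adjusted p = 0.0326) were also lower in line B. Rpl13a is part of the complex that silences inflammatory messages. Rpsa (0.13 ± 0.03, adjusted p = 0.0157), Rps7 (0.14 ± 0.03, adjusted p = 0.0204), Rpl4 (0.13 ± 0.03, adjusted p = 0.0218) and Rps15 (0.12 ± 0.04, adjusted p = 0.0438) were higher. Each value is that of the gene's probe set with the smallest p. The other tested Rps3 probe sets were not called for line (-0.10, adjusted p = 0.0997, and -0.07, adjusted p = 0.651). Nor were those of Rps7 (0.09, adjusted p = 0.266) and Rps15 (0.10, adjusted p = 0.0774). Rpl37a and Rpl13a also had probe sets not called for line. With line A duplicates averaged, 3 members were called for line instead of 12, and between 6 and 10 with 1 array left out.

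**Figure D4:**
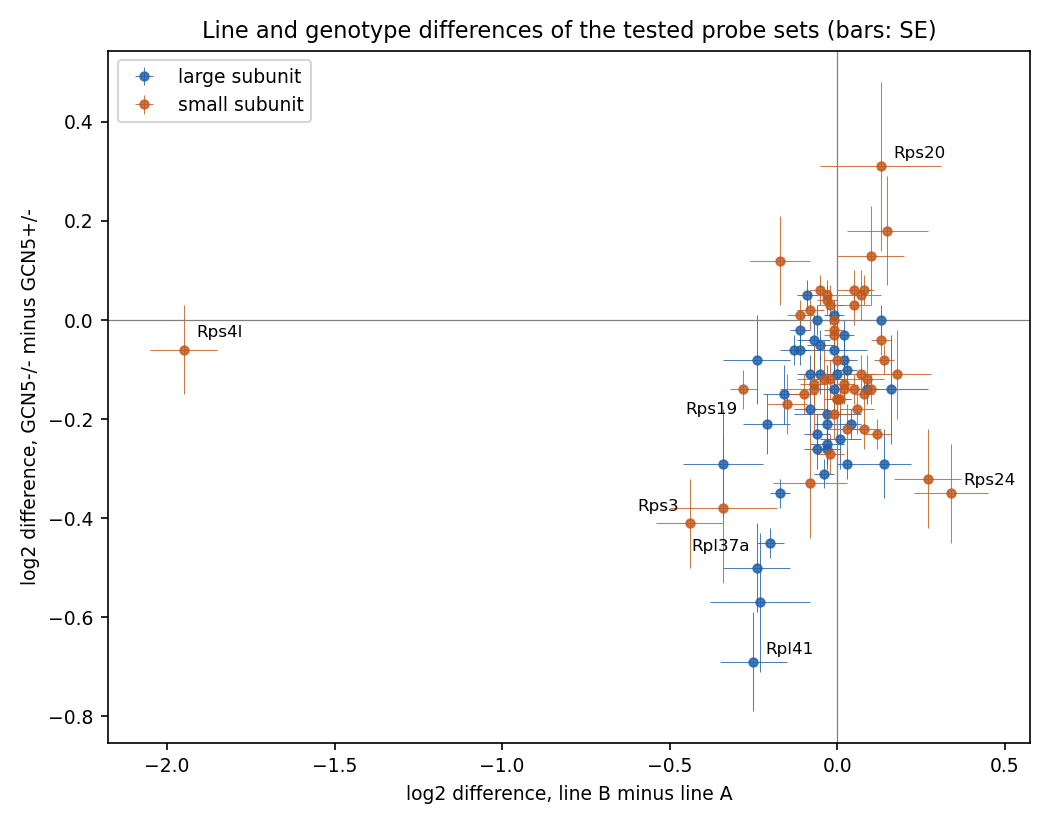
Fitted log2 difference between lines (B minus A, horizontal) and between genotypes (GCN5-/- minus GCN5+/-, vertical) for the 90 tested probe sets, with SE bars and subunits in colour. Rps4l lies alone at -1.95 on the line axis and near 0 on the genotype axis, and Rpl41 at -0.69 is the lowest on the genotype axis.

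The genotype difference was then compared between lines. The genotype by line term was called for 0 of 90 members (limma adjusted p under 0.05), where 0.0259% of all tested probe sets were called lower and 0.0222% higher. At an unadjusted p under 0.05 it was 7 of 90 members (7.78%), against 7.66% of all. This fit has 2 residual degrees of freedom, all from duplicate RNAs, so its reach is small. Within line A alone, 26 of 90 members fell, in 12 genes, where 4.39% of all tested probe sets fell. In the same fit 0 rose, against 4.20% of all, and 1 was higher at an unadjusted p under 0.05, against 11.1%. Leaving out GCN5+/- A1, GCN5+/- A2 or GCN5-/- A1 gave 16, 11 and 16 within line A. The count was 1 without a variance trend, 11 without the _s_at and _x_at probe sets, 3 with plain _at probe sets and 9 with 1 probe set per gene.

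Other genes of the translation machinery were read from lists, with 1 probe set per gene. Of 4 tested ribosome proteins whose symbols lie outside the pattern, 1 fell and 0 rose. This was Rpl22l1, which fell by 0.48 ± 0.08 (limma adjusted p = 0.00991). Fau differed by -0.02, Rpl7l1 by -0.23 (adjusted p = 0.0868) and Rsl24d1 by 0.33 (adjusted p = 0.0509). Of 21 elongation factors and other messages with a TOP stretch, 4 fell and 0 rose (median 0.03): the chaperonin subunit Cct4 (-0.28), the initiation factor subunit Eif3f (-0.21), Serbp1 (-0.16) and Naca (-0.14). Of 19 genes of mTORC1 and translation control, 1 fell and 0 rose (median -0.07): Eef2k, the kinase that inhibits elongation factor Eef2 (-0.87 ± 0.10, adjusted p = 0.00281).

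Ribosome assembly and mitochondrial ribosome genes had medians on the other side of 0. Of 25 chaperones and subunit assembly factors, 0 fell and 6 rose (median 0.21). Bop1, which processes large subunit RNA, read 11.48, 11.42 and 11.97 in GCN5+/- and 12.17, 12.30 and 12.42 in GCN5-/- cells (0.67 ± 0.09, limma adjusted p = 0.00446). All GCN5-/- arrays were above all GCN5+/- arrays for Bop1. Ltv1 (0.44), Gtpbp4 (0.38) and Tsr1 (0.36) also rose. Of 76 mitochondrial ribosomal proteins, 0 fell and 4 rose (median 0.10), a share near the 4.20% of all tested probe sets. Mrps10 had the smallest p (0.56 ± 0.09, adjusted p = 0.0108) and was above 0 in each matched pair. In line B most of these 76 genes were below 0, as was Mrpl23 (0.24 in pair A1, 0.30 in A2 and -0.27 in B). Of 5 genes of p53 surveillance of ribosomal proteins none was called, and Mdm2 had the smallest p (0.26 ± 0.07, adjusted p = 0.0526). Each list is read against the 4.31% and 4.20% called lower and higher over all probe sets, and differences between the lists and the ribosomal proteins were not tested.

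The arrays had medians of 7.40 to 7.45. The 3 Kat2a probe sets differed by -2.44, -0.75 and 0.18, the first 2 called, with the parts of the gene they read not given in the sources used here, and the Kat2b probe sets had means of 4.92 to 6.68 in these PCAF-/- cells, below the filter. All 8 fibroblast markers were above the filter and 4 of them fell. Among markers of other cell types, 2 of 5 macrophage, 2 of 4 epithelial, 1 of 4 endothelial, 1 of 3 skeletal muscle and 3 of 3 neural markers were above the filter, none of them called. The macrophage sum was 9.29 to 9.89 in GCN5+/- and 9.48 to 10.29 in GCN5-/- cells. The 3′ minus 5′ log2 signal, a sign of RNA integrity, was 0.07 to 0.12 and 0.09 to 0.11 for beta-actin, and -0.12 to -0.07 and -0.09 to -0.03 for Gapdh. The part of these in the ribosomal protein differences was not tested.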

How the data were processed

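Expression was measured on 6 arrays. The deposited values are log2 signals per probe set, with the log2 scale read from the values; the submitters' processing notes list MAS5 (6 samples) and Partek (1), without a role. How they were normalized is not given in the sources used here. Medians of the arrays nearly coincide (7.40 to 7.45); scaling between arrays, if done, would remove changes shared by most genes. The number of arrays limits the precision.

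After leaving out 64 control probe sets, limma 3.58.1 in R 4.3.3 (lmFit, eBayes with trend) was fitted to probe sets with a mean signal at or above the 40th percentile, with line as a covariate and Benjamini-Hochberg adjustment over 27022 probe sets. Line came from the same fit; a fit with the product of genotype and line gave the interaction and the line A effect. ± marks the SE unless SD is stated. Replicate numbers pair arrays by line: deviations from the group means correlated at 0.714 (A1), 0.727 (A2) and 0.846 (B). A difference between the lines alone can raise these values. They therefore do not test whether A1 belongs with A1 rather than with A2, a match taken from the labels. No 2 arrays were copies (37 to 62 identical values a pair). The fit was tested on simulated data.

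Symbols came from the platform annotation; all 100 members matched RefSeq by Entrez identifier. Members, lists and motifs were chosen with earlier results of these data known. Named genes were the 12 called with the smallest p, 3 on each side of the threshold, landmark and tissue-restricted members, 6 per direction for line, and up to 5 each for probe set spread and top signal; up to 4 called per list. Fau, Mdm2, Rpl7l1, Rsl24d1, Rpl10a, Rpl27a, Rpl19, Rpl22, Rpl39 and Rps28, outside this rule, were chosen after their values were seen. Alternatives were other normalizations, filters, variance models, probe set choices, blocks and leaving out each array; leaving out _s_at and _x_at probe sets was chosen after seeing the data.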

Additional observations from a re-analysis of the deposited data

How the results depend on the processing

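Against 30 ribosomal protein probe sets called lower, the count was 2 with no line term, 15 with line as a random block, 5 with line A duplicates averaged, 4 without a variance trend, 3 with plain _at probe sets only and 12 with 1 probe set per gene; with 1 array left out it ran from 9 to 27. It was 20 after quantile and 23 after cyclic loess normalization, 20 with no filter and 34 with a filter at the 60th percentile. The replicate block (A1, A2, B) gave 21, all among the 30. Called higher was 0 in every setting run. The 30 stayed below 0 in each refit, except that 1 was not tested at the 60th percentile. Since the 30 were chosen as lower on these arrays, the kept sign is no separate evidence. The choices of probe sets keep the fit and hold fewer of them. The _at and _a_at probe sets, a choice made after seeing the data, gave 12 of 49 called, medians of -0.11 (all), -0.10 (large) and -0.12 (small), and 11 within line A. The median difference of -0.13 became -0.10 after quantile and -0.12 after cyclic loess normalization, -0.12 with plain _at probe sets and -0.10 with 1 per gene (-0.14 to -0.12 with 1 array left out). The large subunit median of -0.15 became -0.17 with averaged duplicates, -0.08 with plain _at probe sets and -0.10 with 1 per gene (-0.17 to -0.13 with 1 array left out). The small subunit median of -0.12 rounded to -0.12 again with averaged duplicates, no filter or the 60th percentile, and became -0.09 after quantile and -0.11 after cyclic loess normalization, -0.13 with plain _at probe sets and -0.08 with 1 per gene (-0.13 to -0.11 with 1 array left out). The line count of 12 became 3 with averaged duplicates, 3 without a trend and 3 with plain _at probe sets (6 to 10 with 1 array left out). Within line A, 26 became 1 without a trend, 3 with plain _at probe sets and 9 with 1 per gene (11 to 20 with 1 array left out). Within 2 log2 units of the highest signal were 60 members instead of 36. Beyond fewer samples or probe sets tested, the cause of these changes was not tested.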
